A study of Mus musculus with 9 samples.

Results

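The genes described here are 9 that are known from neurons of the thalamus: Tcf7l2, Lef1, Rora, Zic1, Slc17a6, Ntng1, Prkcd, Plekhg1 and Synpo2. They are 9 of 19938 genes measured in mouse brain tissue, which the series title gives as cortex. They were selected on the values of these arrays for vehicle-treated 5xFAD mice and wild type, because thalamic genes had lower values in vehicle-treated 5xFAD mice than in wild type. The difference between those groups is therefore given for these genes as a description, with no test, and supports nothing. Each gene is represented by the probe set that names it alone. Ntng1 had a second such probe set, and the one with the higher mean over the 9 arrays stands for it.

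Total RNA was hybridised to 9 Affymetrix mouse gene arrays, 3 biological replicates for each of 3 groups. The first group held 5xFAD mice injected with human amylin, a peptide hormone that pancreatic beta cells release with insulin. The second held 5xFAD mice injected with the vehicle, phosphate-buffered saline (PBS), and the last held wild-type B6SJLF1/J mice injected with PBS. All animals were about 5 months old, and all were injected into the abdominal cavity every day for 10 weeks. 5xFAD mice carry human transgenes with familial Alzheimer's disease mutations, driven in neurons by Thy1 promoter elements, and they form amyloid plaques. The amylin dose and the sex of the mice are not given in the sources used here, and no wild-type mice received amylin.

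Thalamic relay neurons receive sensory, motor and limbic input and send glutamatergic axons to the cortex. Their cell bodies lie in the thalamus, below the cortex, so that a strip of cortex holds their axon terminals but little of their messenger RNA. They differ from most cortical excitatory neurons in the vesicular glutamate transporter they use and in transcription factors such as Tcf7l2 that keep their identity.

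The values are log2 intensities in which the authors had already brought the arrays to a common scale, and array medians lay between 5.71 and 5.79. Precision is set by having 3 arrays a group: over all genes, a difference between groups typically came with a standard error (SE) of 0.07 log2 (median). A gene was called changed at a limma adjusted p under 0.05, adjusted over all 19938 genes. In whole tissue, fewer cells of a type and less RNA per cell cannot be told apart. Probe sets differ in brightness, so levels are compared between arrays and never between genes.

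Of these genes 8, all but Zic1, shared 1 pattern. On every array of both 5xFAD groups they lay below every wild-type array, and the amylin-treated and vehicle-treated mice overlapped. Zic1 overlapped between all 3 groups, so it is counted with the thalamic genes by name and departs from them in its values. Within the amylin group, replicate 2 stood above the other replicates for 9 of 9 genes, and the differences of the amylin group are also given without it.

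**Figure D1:**
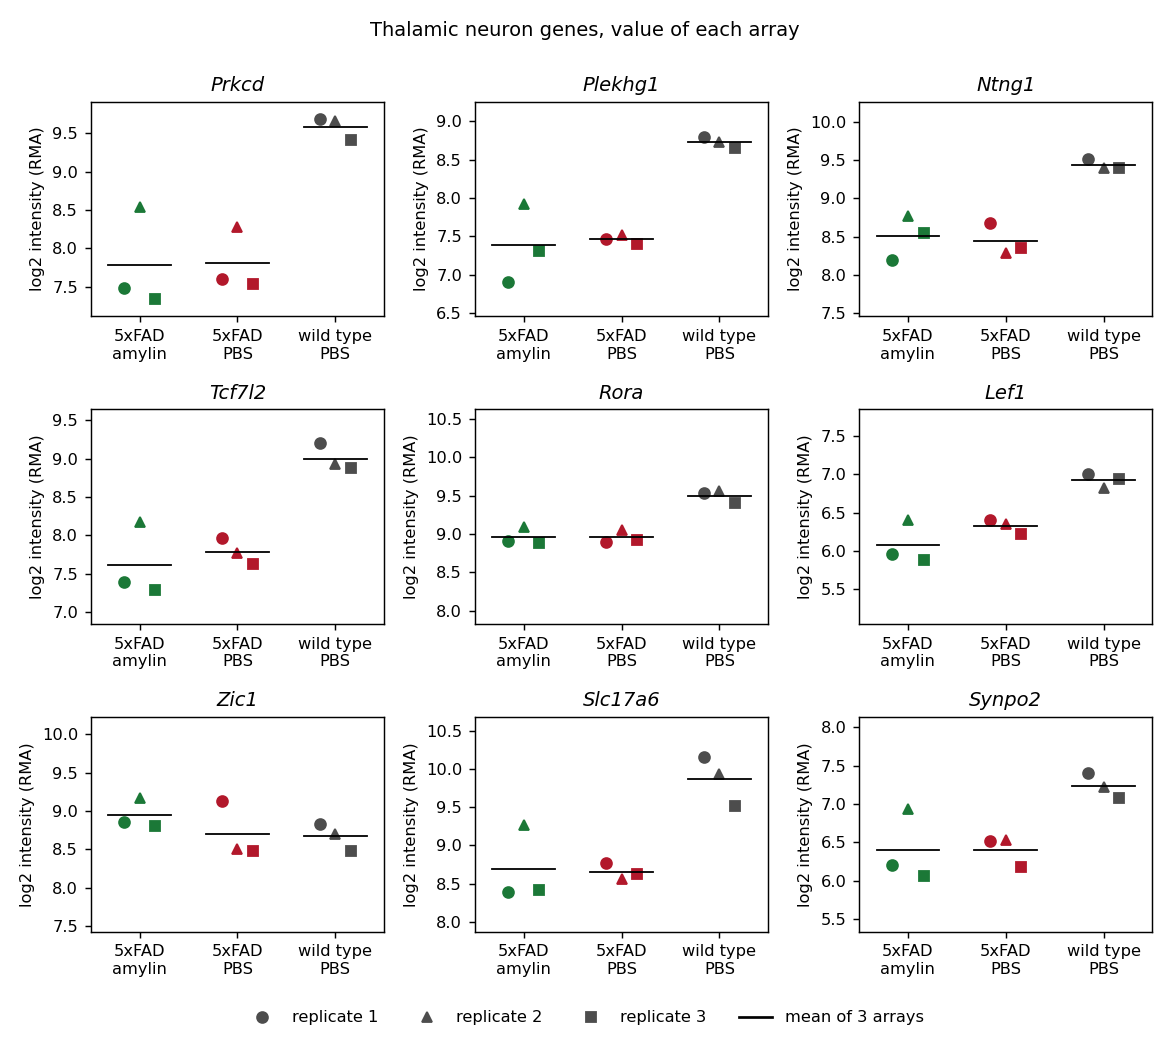
Log2 intensity (vertical axis, each panel spanning the same range of log2 units) of the 9 genes on each array, with 5xFAD amylin, 5xFAD PBS and wild-type PBS from left to right. Each dot is 1 array, marker shapes give the replicate number and the bar is the mean of 3 arrays; in every panel but that of Zic1, all 6 arrays of 5xFAD mice lie below the 3 wild-type arrays.

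Tcf7l2 and Lef1 encode transcription factors of one family that bind DNA with the coactivator beta-catenin and carry out the response to Wnt signals. In the mouse, Tcf7l2 is needed for the adult gene programme of thalamic and habenular neurons. The letters TCAAAG are the core of the DNA sequence that this family binds, and they were searched for on both strands, as CTTTGA on the opposite one, in the 250 bases before each transcript start listed by RefSeq for the GRCm38.p6 assembly. The search covered 15 windows of the 9 genes and found the core in 2 of the genes, Prkcd and Lef1. The share of all 27025 genes with the core in such a window was 15.8%. By window, the core was in 2 of the 15, beside 13.8% of all windows. Both windows are shown because they are those of a gene of the family itself and of the gene with the largest difference from wild type among the 9. Capitals mark the core. The Lef1 window with the core (chr3:131156044-131156293, + strand) holds it 180 and 120 bases before the start. The Prkcd window with the core (chr14:30626209-30626458, - strand) holds it 139 bases before the start. The other Lef1 windows, whose starts lie further upstream, and the other Prkcd window do not hold it.
Lef1: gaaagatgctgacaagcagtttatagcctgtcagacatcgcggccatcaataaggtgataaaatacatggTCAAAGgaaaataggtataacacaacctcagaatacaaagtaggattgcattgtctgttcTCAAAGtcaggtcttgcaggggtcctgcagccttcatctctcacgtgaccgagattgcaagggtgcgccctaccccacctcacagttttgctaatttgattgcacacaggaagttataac
Prkcd: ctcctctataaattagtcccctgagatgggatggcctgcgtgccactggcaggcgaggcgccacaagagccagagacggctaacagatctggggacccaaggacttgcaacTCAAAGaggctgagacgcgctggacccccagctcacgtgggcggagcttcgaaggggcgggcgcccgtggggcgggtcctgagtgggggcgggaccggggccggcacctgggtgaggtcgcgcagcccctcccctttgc
A match is a description of letters and not a site. The motif AGGTCA, read as TGACCT from the opposite strand and bound by nuclear receptors of the ROR family, was in the windows of 0 of the 9 genes and of 15.8% of all genes.

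Tcf7l2 measured 7.39, 8.17 and 7.28 log2 in replicates 1, 2 and 3 of the amylin-treated 5xFAD mice, 7.97, 7.77 and 7.62 in vehicle-treated 5xFAD mice, and 9.20, 8.92 and 8.87 in wild type. The highest 5xFAD array, replicate 2 of the amylin group, was still below the lowest wild-type array. The mean of the amylin group was lower than that of wild type by 1.39 ± 0.21 log2 (SE), or 2.62-fold, and the vehicle mean was lower than wild type by 1.21 ± 0.21 log2. Lef1 measured 5.96, 6.40 and 5.88 in the amylin group, 6.40, 6.35 and 6.22 in the vehicle group, and 7.01, 6.82 and 6.94 in wild type. All 6 arrays of 5xFAD mice were again below wild type, and in the amylin group only replicate 2 reached the range of the vehicle group. The log2 difference of Lef1 was -0.84 ± 0.12 (SE) between amylin and wild type and -0.60 ± 0.12 between vehicle and wild type.

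Rora encodes a nuclear receptor of the ROR family that is strongly expressed in thalamic relay neurons and also needed for cerebellar Purkinje cells. It measured 8.90, 9.09 and 8.88 in the amylin group, 8.89, 9.05 and 8.92 in the vehicle group, and 9.53, 9.56 and 9.41 in wild type. Both 5xFAD groups took up nearly the same range, below wild type. The log2 difference from wild type was -0.54 ± 0.07 (SE) for amylin and -0.55 ± 0.07 for vehicle, the smallest of the 8 genes that lay apart from wild type.

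Zic1, a zinc-finger transcription factor of the dorsal midline that is expressed in medial thalamus but also in other regions such as the olfactory bulb, septum and cerebellum, went its own way. It measured 8.86, 9.17 and 8.81 in the amylin group, 9.13, 8.51 and 8.48 in the vehicle group, and 8.84, 8.70 and 8.48 in wild type. The groups overlapped, and the largest gap was within the vehicle group, where replicate 1 stood above replicates 2 and 3. The amylin mean differed from the wild-type mean by 0.27 ± 0.17 log2 (SE; limma adjusted p = 0.455), and the vehicle mean by 0.03 ± 0.17.

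Slc17a6 encodes the vesicular glutamate transporter VGLUT2, which loads glutamate into synaptic vesicles of thalamic and many other subcortical neurons. It measured 8.39, 9.27 and 8.41 in the amylin group, 8.77, 8.56 and 8.62 in the vehicle group, and 10.16, 9.93 and 9.51 in wild type. Amylin replicate 2 came closest to wild type, whose lowest array was replicate 3, without overlap. The log2 difference from wild type was -1.18 ± 0.23 (SE) for amylin, 2.26-fold lower, and -1.22 ± 0.23 for vehicle.

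Ntng1 encodes netrin-G1, a membrane-anchored adhesion protein on thalamocortical axons that binds the postsynaptic protein NGL-1. Its probe set measured 8.20, 8.77 and 8.55 in the amylin group, 8.68, 8.29 and 8.35 in the vehicle group, and 9.52, 9.39 and 9.40 in wild type. Wild type lay above both 5xFAD groups, which overlapped fully. The second Ntng1 probe set, which is dimmer, measured 6.12, 6.35 and 6.22 in the amylin group, 6.35, 6.19 and 6.12 in the vehicle group, and 6.78, 6.68 and 6.50 in wild type. It also placed all arrays of 5xFAD mice below wild type.

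Prkcd encodes protein kinase C delta, a signalling kinase that marks relay nuclei of the mouse thalamus and also cells of the central amygdala. It showed the largest difference of the 9 genes. It measured 7.48, 8.54 and 7.34 in the amylin group, 7.59, 8.28 and 7.53 in the vehicle group, and 9.68, 9.66 and 9.41 in wild type. In both 5xFAD groups replicate 2 was the highest, and it remained below all wild-type arrays. The log2 difference from wild type was -1.80 ± 0.30 (SE) for amylin, 3.48-fold lower, and -1.78 ± 0.30 for vehicle.

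Plekhg1 belongs to a family of signalling proteins with a pleckstrin homology domain. It measured 6.91, 7.93 and 7.31 in the amylin group, 7.46, 7.52 and 7.40 in the vehicle group, and 8.80, 8.74 and 8.65 in wild type. The vehicle arrays lay close together, within the wider range of the amylin arrays. The log2 difference from wild type was -1.34 ± 0.20 (SE) for amylin and -1.27 ± 0.20 for vehicle.

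Synpo2, an actin-binding protein related to synaptopodin that is also abundant in smooth muscle, measured 6.21, 6.94 and 6.07 in the amylin group, 6.52, 6.53 and 6.18 in the vehicle group, and 7.40, 7.23 and 7.08 in wild type. Amylin replicate 2 came close to the lowest wild-type array without reaching it. The log2 difference from wild type was -0.83 ± 0.20 (SE) for both 5xFAD groups.

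**Figure D2:**
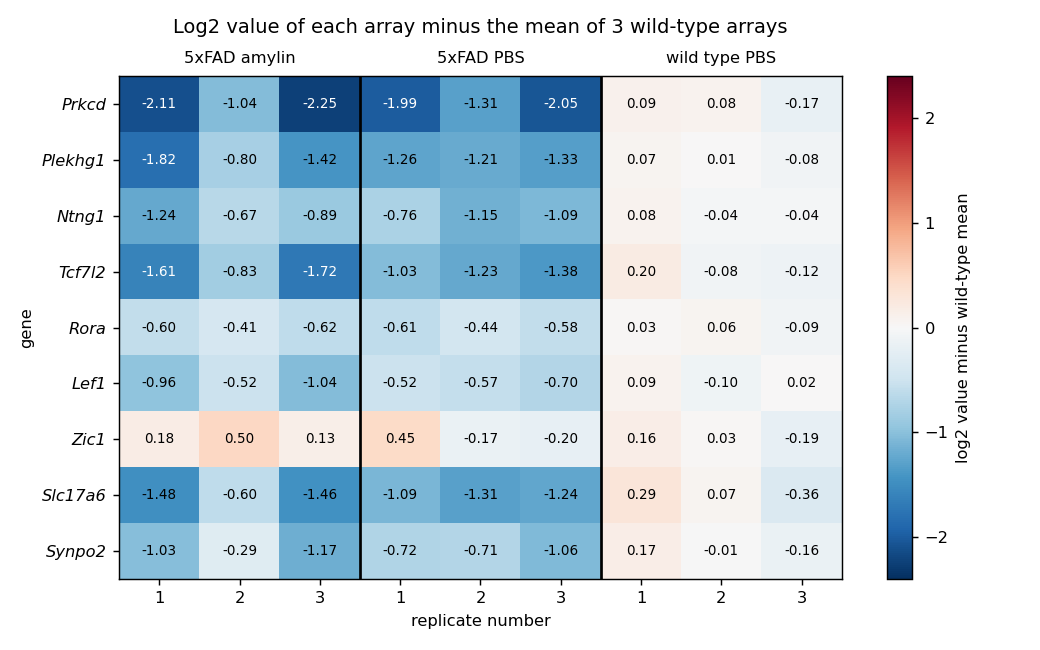
Heat map of the log2 intensity of each of the 9 genes (rows) on each array (columns: 5xFAD amylin, 5xFAD PBS, wild-type PBS, replicates 1 to 3) minus the mean of the 3 wild-type arrays. Blue is below and red above that mean; replicate 2 of the amylin group is paler than replicates 1 and 3 for the genes that are lower, by 1.13 log2 in the case of Prkcd.

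Whether amylin changed these genes in 5xFAD mice is asked by setting the amylin group against the vehicle group. The vehicle arrays are among those on which the genes were chosen, for low values there. The differences and intervals below are therefore not independent of that choice. Of the 9 genes, 0 passed limma's test at an adjusted p under 0.05 and 0 had an unadjusted p under 0.05. Among all genes 0.00502% passed, a single gene, and 6.9% had an unadjusted p under 0.05. For 0 of the 9 did the groups lie apart, against 3.81% of all genes apart with amylin lower and 5.49% with amylin higher. The median difference of the 9 genes was -0.0024 log2, beside 0.0006 over all genes.

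The intervals of these differences show what the arrays could not separate from 0. For Prkcd the difference between amylin and vehicle was -0.02 ± 0.30 log2 (SE; limma adjusted p = 0.993), with a 95% confidence interval from -0.69 to 0.65. For Rora it was 0.00 ± 0.07, with the narrowest interval of the 9, from -0.16 to 0.17. Lef1 had the smallest adjusted p of the 9, 0.757 by limma, with a difference of -0.24 ± 0.12 and an interval from -0.52 to 0.04. The interval ran from -0.64 to 0.29 for Tcf7l2, from -0.15 to 0.63 for Zic1, from -0.48 to 0.55 for Slc17a6, and from -0.25 to 0.38 for Ntng1. For Plekhg1 it ran from -0.53 to 0.37, and for Synpo2 from -0.46 to 0.46. A p above the threshold does not show that the groups were alike, and these intervals leave room for changes in either direction. Without amylin replicate 2 the median difference of the 9 genes was -0.27 log2, with -0.39 for Prkcd and -0.45 for Tcf7l2, and 0 of the 9 passed.

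Against wild type, 8 of the 9 genes fell in the amylin-treated mice, where 5.21% of all genes were called (2.86% of all genes lower). The wild-type arrays are the same as in the comparison in which the genes were noticed, so these calls are not independent evidence of the direction. The same holds for the size of the p values and for the passes without an array given below. The limma adjusted p was 0.0037 for Rora, 0.00536 for Lef1, 0.00573 for Plekhg1, 0.00587 for Tcf7l2, 0.00614 for Ntng1 and 0.00931 for Prkcd. It was 0.019 for Slc17a6 and 0.0495 for Synpo2. The groups lay apart for these 8 genes, where 12.3% of all genes lay apart with amylin lower. When each of the 9 arrays was left out in turn, the first 6 of these genes passed in 9 of 9 fits, Slc17a6 in 5 and Synpo2 in 1. The limma adjusted p reached 0.0928 for Slc17a6 and 0.188 for Synpo2 in those fits. Both genes also missed the threshold in the fit of only the 2 groups, and Synpo2 with array weights. Without amylin replicate 2 the difference from wild type was -2.18 log2 for Prkcd, -1.66 for Tcf7l2, -1.62 for Plekhg1, -1.47 for Slc17a6 and -1.10 for Synpo2. It was then -1.06 for Ntng1, -0.998 for Lef1, -0.61 for Rora and 0.16 for Zic1, and the same 8 genes passed. Between vehicle and wild type, where the genes were chosen, the groups lay apart for 8 of the 9, beside 15.6% of all genes apart with vehicle lower. Nothing is read from that count. The median difference of the 9 genes was -0.93 log2 for amylin against wild type and -0.998 for vehicle against wild type, and over all genes it was -0.01 in both. The comparisons with wild type share its 3 arrays.

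**Figure D3:**
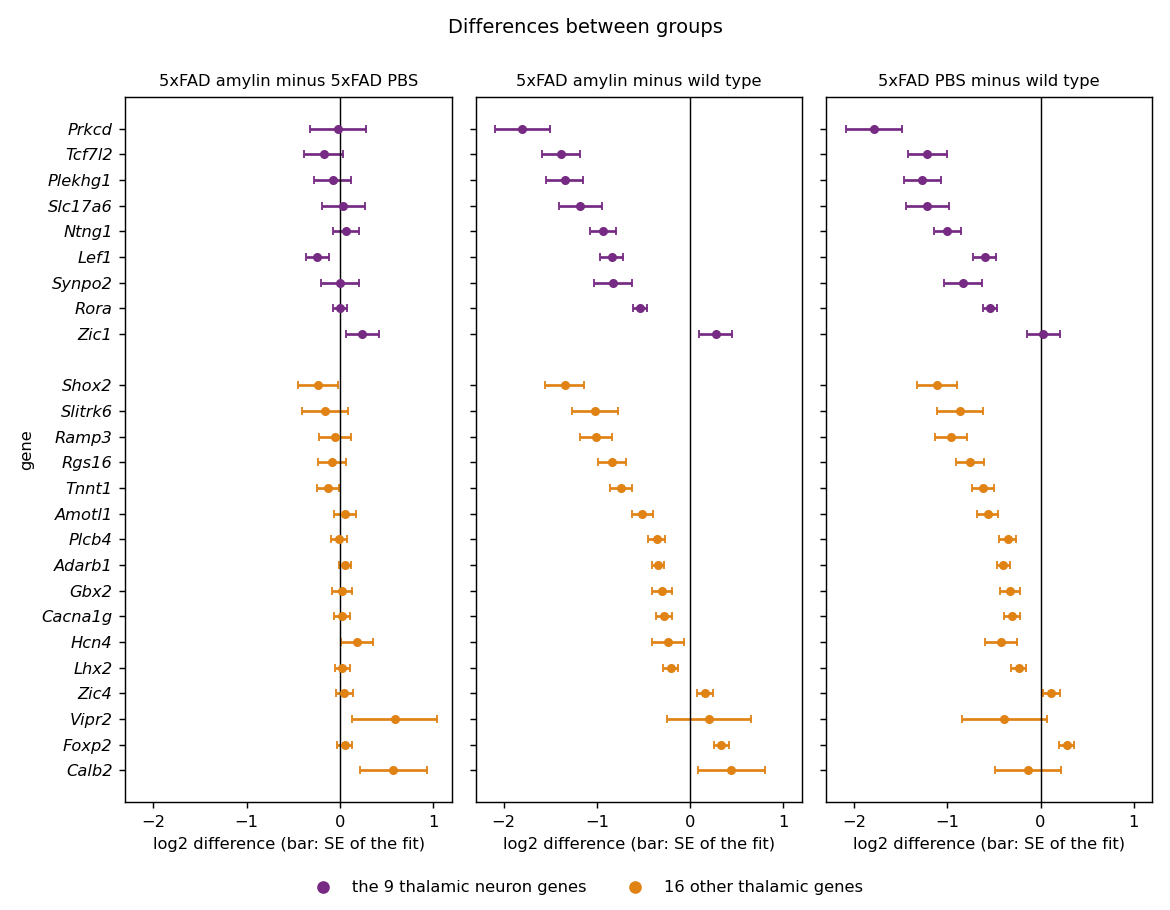
Log2 differences between groups (horizontal axis, dots) with their standard errors (bars) for the 9 genes and for 16 other thalamic genes (rows), for amylin minus vehicle, amylin minus wild type and vehicle minus wild type. Differences between amylin and vehicle lie around 0, while 8 of the 9 genes lie below 0 in both comparisons with wild type, with Prkcd the lowest at -1.80 and -1.78.

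Variation within groups was large for many of these genes, though not for all of them in every group. That was already known from these arrays when the genes were set out, so the spread is given as a description. In the amylin group the standard deviation of the median member was 0.47 log2, where the median gene of the array had 0.087. In the vehicle group it was 0.173 for the median member and 0.072 for the median gene, and in wild type 0.151 and 0.06. The standard deviation of Prkcd in the amylin group, 0.657, was larger than that of 99.8% of genes. That of Rora was larger than in 63.6% of genes in the amylin group, 60.6% in the vehicle group and 67.1% in wild type. For Plekhg1 the share was 99.6% in the amylin group, 41.8% in the vehicle group and 63.1% in wild type. These deviations in the amylin group include replicate 2. Replicate 2 was the highest amylin array for 9 of 9 genes, where 27.3% of all genes were highest on that array. It exceeded the mean of replicates 1 and 3 by 1.13 log2 for Prkcd (2.19-fold), by 0.86 for Slc17a6, by 0.83 for Tcf7l2 and by 0.20 for Rora, the smallest step. These steps covered 52% of the distance from the other amylin arrays to the wild-type mean for Prkcd, 58.9% for Slc17a6, 50% for Tcf7l2, 32.1% for Rora and 73.3% for Synpo2. Wild-type replicate 1 was the highest wild-type array for 8 of the 9 genes (40.6% of all genes), and replicate 3 the lowest for 7 (32.9%). In the vehicle group replicate 3 was the lowest for 6 of the 9 (31.4%). Averaged over the 9 genes and set against the wild-type mean, the amylin arrays stood at -1.18, -0.52 and -1.16 log2, the vehicle arrays at -0.84, -0.90 and -1.07, and the wild-type arrays at 0.13, 0.00 and -0.13.

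A list of 16 other genes of thalamic neurons, all measured, was read in the same way. The list was chosen with earlier results of these data known, and it was read on the same arrays. Its calls against wild type and their p values are therefore not independent evidence beside the 9 genes. Between amylin and vehicle 0 of 16 passed limma's test, and 0 had an unadjusted p under 0.05. The 2 genes nearest to the threshold were Calb2, a calcium buffer of midline thalamus and many interneurons, at 0.57 ± 0.36 log2 (SE; limma adjusted p = 0.785), and Vipr2, a receptor for vasoactive intestinal peptide, at 0.59 ± 0.45 (0.823). Against wild type 7 of the 16 fell in the amylin group and 1 rose, beside 2.86% and 2.35% of all genes. In the vehicle group 7 of the 16 fell and 0 rose, where 8.58% of all genes were called, 4.92% lower and 3.66% higher. Their median difference from wild type was -0.32 log2 for amylin and -0.39 for vehicle.

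Of these, Shox2, a homeobox transcription factor, measured 4.70, 5.50 and 4.53 in the amylin group, 5.14, 5.27 and 5.02 in the vehicle group, and 6.37, 6.29 and 6.10 in wild type. Rgs16, an inhibitor of G protein signalling, measured 7.51, 8.11 and 7.60 in the amylin group, 7.98, 7.84 and 7.66 in the vehicle group, and 8.73, 8.52 and 8.49 in wild type. Ramp3 encodes a protein that pairs with the calcitonin receptor to form an amylin receptor. It measured 5.92, 6.62 and 6.05 in the amylin group, 6.17, 6.46 and 6.10 in the vehicle group, and 7.30, 7.30 and 7.02 in wild type. All 3 genes were below wild type on every array of 5xFAD mice, and replicate 2 was again the highest amylin array. For amylin against wild type the limma adjusted p was 0.00737 for Shox2, 0.0105 for Ramp3 and 0.013 for Rgs16, and for vehicle against wild type it was 0.0117 for Shox2, 0.00893 for Ramp3 and 0.015 for Rgs16. Tnnt1, a troponin subunit, Adarb1, an RNA-editing deaminase, and Amotl1, a cell junction protein, also fell in both 5xFAD groups. Slitrk6, a synaptic adhesion protein, fell by 1.02 log2 in the amylin group (limma adjusted p = 0.0447), and Plcb4, a phospholipase, passed only in the vehicle group (0.0431); the difference between those groups was not called for either gene. Foxp2, a forkhead transcription factor that neurons of other regions use too, rose by 0.33 log2 in the amylin group (0.0493). Plcb4 and Foxp2 are named after their values were seen. With each array left out in turn, Slitrk6 and Foxp2 passed in 2 of 9 fits, Plcb4 in 3, and Amotl1 in 3 for amylin and 5 for vehicle. These 4 genes also missed the threshold in the fit of only the 2 groups, with Amotl1 doing so for amylin alone, and so did Slitrk6, Foxp2 and Amotl1 for amylin with array weights. For amylin against wild type, Adarb1 passed in 6, Rgs16 in 7 and Ramp3 in 8 of the 9 fits without an array. Tnnt1 and Shox2 passed there in 9 of 9. Among the 16 genes, 12 were highest in replicate 2 of the amylin group. The count of 7 for amylin fell to 3 without amylin replicate 3, to 2 without wild-type replicate 1 and to 4 without wild-type replicate 2. The count of 7 for vehicle fell to 3 without vehicle replicate 3 and to 3 without wild-type replicate 1.

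Neighbouring diencephalic cell groups were measured with short lists. Of 6 genes of the habenula, which also depends on Tcf7l2, 0 passed between amylin and vehicle (1 had an unadjusted p under 0.05 by limma). Pou4f1, a transcription factor of habenular neurons, fell by 0.47 log2 in vehicle-treated mice against wild type (limma adjusted p = 0.0415), and the difference was -0.45 in amylin-treated mice (0.0676). Tac2, a neurokinin precursor, rose by 0.37 in amylin-treated mice (0.0408). Pou4f1 passed in 3 and Tac2 in 1 of the 9 fits without an array, and neither passed in the fit of only the 2 groups. Of 3 genes of the inhibitory reticular nucleus of the thalamus, 0 passed in any comparison by limma, though 3 had an unadjusted p under 0.05 for amylin against wild type, where 19.2% of all genes did. Six3, a transcription factor, was higher there by 0.32 (limma adjusted p = 0.0679), and Pvalb, a calcium buffer of fast-spiking neurons, lower by 0.51 (0.0795).

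The relatives and partners of the 9 genes mostly did not pass. Of 19 measured genes of the Wnt and TCF pathway, 0 passed between amylin and vehicle or between amylin and wild type by limma, though 6 had an unadjusted p under 0.05 in the comparison of amylin with wild type. Between vehicle and wild type 1 passed, Nkd2, an inhibitor of Wnt signalling, which fell by 0.47 ± 0.12 log2 (SE; limma adjusted p = 0.0408). Of 3 relatives of Rora, Nr1d1, a repressor of the circadian clock that binds the same DNA letters as the ROR receptors, fell by 0.47 in the amylin group (0.00922) and by 0.46 in the vehicle group (0.00709). Of the postsynaptic partners of the netrin-G proteins 0 of 3 passed by limma in any comparison, and 1 had an unadjusted p under 0.05 for amylin against wild type. Of 3 relatives of Zic1, Zic5 rose by 0.34 in the amylin group (0.0174), but with the mean of all its probe sets the difference was 0.18 (0.19). Slc17a7, the vesicular glutamate transporter VGLUT1 of most cortical excitatory neurons, fell by 0.23 in the vehicle group (0.0355), and the other 2 transporters of its list did not pass. Among 7 other protein kinase C genes, Prkch rose by 0.57 in the amylin group (0.0225) and by 0.58 in the vehicle group (0.0147), the direction opposite to that of Prkcd, and Prkce fell by 0.21 in the vehicle group (0.0356). With the mean of all its probe sets the difference of Prkch in the amylin group was 0.335. Apart from Nr1d1, which passed in 9 of 9, these calls were not stable to leaving out an array: Zic5 passed in 6 of 9 fits, Prkch for amylin in 4, and Nkd2, Slc17a7 and Prkce in 3 each. Nkd2, Slc17a7 and Prkce also missed the threshold in the fit of only the 2 groups, Slc17a7 and Prkce with quantile normalization repeated or arrays centred on their medians, and Prkce with the replicate block. At an unadjusted p under 0.05 by limma there were 3 of 3 transporters and 4 of 7 kinases for amylin against wild type, in mixed directions (19.2% of all genes). For vehicle against wild type there were 1 of 3 and 2 of 7 (21.2%).

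Several of the 9 genes are also expressed outside thalamic neurons, and markers of those cells were read beside them. The part of those cells in the values of the 9 genes was not tested. Prkcd is found in microglia and other myeloid cells, and 6 of 6 microglial genes rose in both 5xFAD groups while Prkcd was lower. Of all genes, 2.35% rose in the amylin group and 3.66% in the vehicle group. Lef1 is found in brain endothelium, where 0 of 5 markers passed in any comparison by limma (4 had an unadjusted p under 0.05, higher, for vehicle against wild type, where 21.2% of all genes did). Synpo2 is found in smooth muscle, where 0 of 4 markers passed by limma and 0 had an unadjusted p under 0.05. Tcf7l2 is found in newly formed oligodendrocytes, where 0 of 4 passed by limma and 2 had an unadjusted p under 0.05 for amylin against wild type. Of the markers of mature myelin, 3 of 4 fell in the amylin group and 1, Mobp, in the vehicle group, where it passed in 1 of the 9 fits without an array and missed the threshold with the replicate block. Zic1 is found in meningeal fibroblasts, where Dcn, a matrix proteoglycan, fell by 1.08 log2 in the amylin group (limma adjusted p = 0.00901) and by 1.03 in the vehicle group (0.00774), while the other 4 markers did not pass.

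Markers of other brain regions differed between the same groups, and some between the same arrays. The deposited table holds no detection calls, so presence or absence of a region's markers is not read from it. Cortical layer markers had a median difference from wild type of -0.08 log2 for amylin and -0.05 for vehicle. Single markers moved in both directions, from -0.61 to 0.52 for amylin and from -0.62 to 0.57 for vehicle. By limma, 7 of 11 had an unadjusted p under 0.05 for amylin (19.2% of all genes) and 6 of 11 for vehicle (21.2%). Of 11 measured, Cux1, an upper-layer transcription factor, rose in both groups, while Fezf2 and Etv1, of deep layers, fell in the vehicle group. Without an array, Fezf2 passed in 2 of 9 fits and Etv1 in 5, and Cux1 in 5 for each group, and Fezf2 missed the threshold with the replicate block and in the fit of only the 2 groups. Of 8 hippocampal markers 7 fell in both 5xFAD groups, with medians of -1.16 for amylin and -1.14 for vehicle, and 8 of 8 striatal markers rose in both, with medians of 1.53 and 1.62. On the arrays the mean of the hippocampal list against wild type lay between -1.11 and -0.98 in the amylin group and between -1.13 and -1.01 in the vehicle group. The striatal mean lay between 1.44 and 1.55 in the amylin group and between 1.48 and 1.64 in the vehicle group. Replicate 2 of the amylin group stood near the other replicates for these lists and apart for others. Its hypothalamic list mean was 1.18 log2 above wild type, where replicates 1 and 3 had 0.14 and 0.10. It was the highest amylin array for 7 of 9 hypothalamic genes and 6 of 6 microglial genes, beside 27.3% of all genes. Its mean for 4 olfactory bulb markers was 0.69, where replicates 1 and 3 had 1.93 and 2.15. It was the lowest for 4 of 4, beside 30.3% of all genes. The vehicle group was spread for this list too, with 2.17, 0.56 and 1.15 in replicates 1, 2 and 3. Vehicle replicate 2 was the lowest vehicle array for 4 of 4, beside 29.1% of all genes. Its mean for the 9 thalamic genes, -0.90, lay between those of the other vehicle arrays. The part of these differences between arrays in the values of the 9 genes was not tested.

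**Figure D4:**
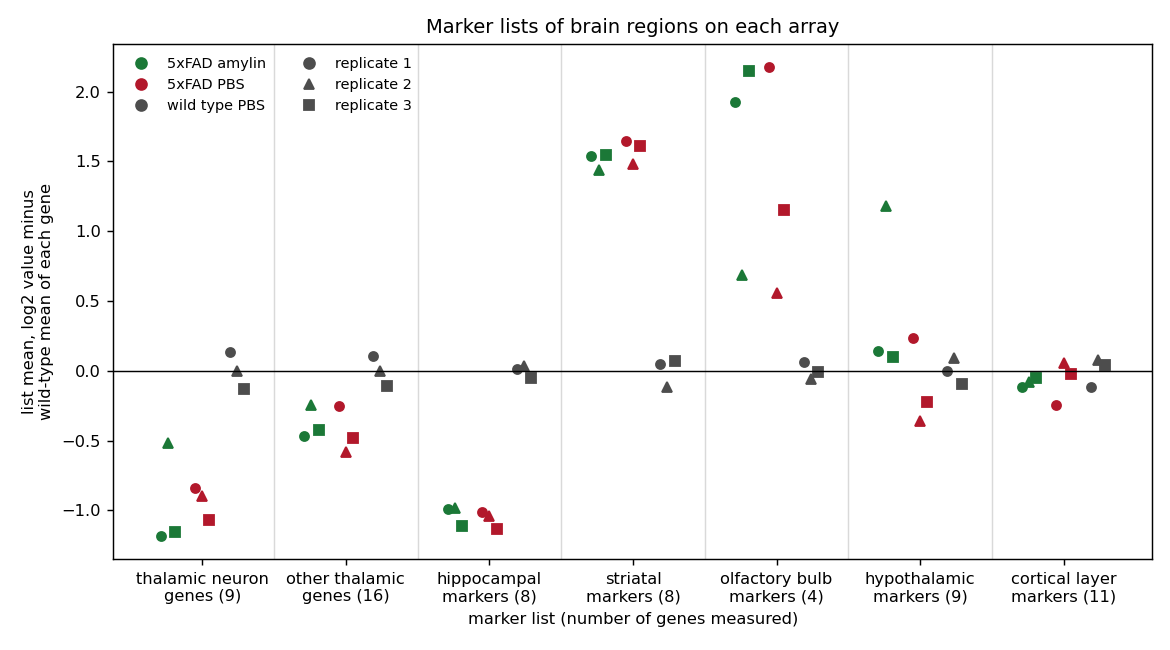
Mean log2 intensity of each gene list minus its mean in the 3 wild-type arrays (vertical axis), for every array of the 5xFAD amylin, 5xFAD PBS and wild-type PBS groups, from left to right, with 1 column of points per list and marker shapes for the replicates. The 9 thalamic genes and the hippocampal list lie below 0 and the striatal list above 0 on all 6 arrays of 5xFAD mice. Replicate 2 of the amylin group stands apart within its group for the thalamic, hypothalamic and olfactory bulb lists. The vehicle arrays are also spread for the olfactory bulb list, with replicate 2 the lowest.

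The 10 genes whose profile over the 9 arrays lay closest to the mean profile of the 9 were found by the root mean square distance between centred log2 values. The closest was Rgs16, at 0.087 log2, followed by Ramp3 (0.098), Chrna4, a nicotinic acetylcholine receptor subunit (0.108), Tenm2, a teneurin adhesion protein (0.143), and Galnt17, a glycosyltransferase (0.143). Vav3, Slitrk6, C1ql4, C1ql2 and Mctp2 came next, at 0.155 to 0.182, where the median gene had 0.489. Of these 10 genes, 3 were on the list of other thalamic genes and C1ql2 was on the hippocampal list. Chrna4 measured 7.98, 8.33 and 7.95 in the amylin group, 8.09, 8.21 and 7.98 in the vehicle group, and 9.26, 8.99 and 9.06 in wild type, with the same order of arrays within the amylin group as Prkcd. By the same distance Synpo2 (0.091) and Ntng1 (0.14) lay nearest to the mean of their own set, while Prkcd (0.461) and Zic1 (0.552) lay farthest.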

How the data were processed

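Total RNA of 9 mouse brain samples was measured on 1 array each. The authors deposited log2 intensities of 35556 probe sets, which per the submitters' processing notes come from RMA as run in the package oligo (no versions given). RMA corrects background, brings the arrays to common quantiles and summarises probes, so a shift shared by most genes would be removed. No source used here gives the genome build of the array annotation, so probe sets are given no coordinates; the promoter windows are those of RefSeq on GRCm38.p6. Probe sets that name 1 gene numbered 21789. Of genes with several, the probe set with the highest mean was kept, which left 19938 genes, with no filter on low signal. Groups were taken from the sample titles.

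All 9 arrays were fitted together with limma 3.58.1 in R 4.3.3 (a mean per group, 3 contrasts, empirical Bayes with a constant prior, 6 degrees of freedom from the residuals and 3.53 from the prior). Calls were made at a Benjamini-Hochberg adjusted p under 0.05 over all genes. The fit was tested on simulated data. The labels call the samples biological replicates. The 9 genes and the marker lists were chosen with earlier results of these data known. Named from other lists were, per comparison, the called genes (at most the 6 with the smallest p) or else the 2 with the smallest p, and the 10 genes nearest in profile. Listed genes with no probe set of their own name were not analysed here. Same-numbered replicates did not deviate together in every pair (correlations of deviations from the group means between -0.056 and 0.183), so the number was not used to pair them. These correlations were all above 0 between amylin and vehicle (0.0997 to 0.130) and between vehicle and wild type (0.064 to 0.183). Replicates with unlike numbers had correlations from -0.232 to 0.126. Alternatives were other normalizations, filters, priors and probe set rules, fits of the 2 groups compared, array weights, a replicate block and leaving out each array; for genes other than the 9 they were added after the data were seen.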

Additional observations from a re-analysis of the deposited data

How the results depend on the processing

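Only 3 arrays a group limit what can be seen, and replicate 2 of the amylin group carries much of the spread of the thalamic genes. Under every alternative run, 0 of the 9 genes passed between amylin and vehicle, and the signs of differences near 0 turned. With quantile normalization repeated, Rora came to -0.021 log2 and Synpo2 to 0.003, and with each array centred on its median Synpo2 came to 0.004. With array weights the median of the 9 was 0.197, with Prkcd at 0.377, Plekhg1 at 0.185, Tcf7l2 at 0.081 and Synpo2 at 0.266. These weights were highest for replicate 2 among the amylin arrays (1.61).

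With each array left out in turn, the median of amylin minus vehicle ranged from -0.271 to 0.137. It ranged from -0.394 to 0.221 for Prkcd, from -0.351 to 0.157 for Plekhg1, from -0.066 to 0.217 for Ntng1, from -0.062 to 0.054 for Rora, from -0.251 to 0.187 for Slc17a6 and from -0.271 to 0.167 for Synpo2. Zic1 in vehicle minus wild type ranged from -0.181 to 0.143, and was -0.065 without wild-type replicate 3. The 1 gene called between amylin and vehicle became 0 with only those 2 groups in the fit, 0 with the replicate block, and 0 to 7 with an array left out. The genes called against wild type ranged from 447 to 1086 for amylin and from 863 to 1779 for vehicle, and the other thalamic genes called lower from 2 to 9 and from 3 to 10. Of the 9 genes, 6 to 8 were called between amylin and wild type, and 8 with the replicate block. These counts are no independent evidence of stability, because the genes were chosen on the same wild-type arrays. Between vehicle and wild type the count was 5 to 8, which says nothing of stability because the genes were chosen there. Pvalb, not called, ranged from -0.255 to 0.047 in vehicle minus wild type. The cause of these shifts was not tested.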

Other observations

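Other lists, also chosen with earlier results of these data known, held markers of cells and regions that were not set beside the 9 genes. Of 4 genes of cholinergic and septal neurons, Chat, the enzyme that makes acetylcholine, rose by 0.74 log2 in the amylin group against wild type (limma adjusted p = 0.00207) and by 0.44 in the vehicle group (0.0166). Slc5a7, the choline transporter, rose by 0.83 in the amylin group (0.0114) and by 0.76 in the vehicle group (0.0115), and Trpc4, a cation channel of the lateral septum, fell in both. Of 9 hypothalamic genes, the peptide precursors Oxt and Trh rose in the amylin group against wild type (limma adjusted p of 0.0369 and 0.0358), in 3 and 2 of the 9 fits without an array. Between amylin and vehicle neither passed (0.687 and 0.799), and Trh differed by 1.17 log2 between vehicle and wild type (0.12).

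Pmch, the precursor of melanin-concentrating hormone of hypothalamic neurons, is named after its values were seen. It measured 4.43, 9.35 and 4.39 log2 in the amylin group, 4.69, 4.50 and 4.35 in the vehicle group, and 7.33, 7.76 and 6.16 in wild type. Replicate 2 of the amylin group, the array that also stood highest for the 9 thalamic genes, was the only array of 5xFAD mice above 5 log2. Slc6a3, the dopamine transporter of midbrain neurons, measured 5.98, 5.53 and 5.96 in the amylin group, 6.01, 5.39 and 5.38 in the vehicle group, and 8.78, 6.82 and 6.98 in wild type. Wild-type replicate 1, the highest wild-type array for 8 of the 9 thalamic genes, was the highest for 4 of 4 dopamine neuron markers. Of all genes, 40.6% were highest on that array. It was also the highest for 4 of 4 myelin and 4 of 4 smooth muscle markers, but for 0 of 11 cortical layer markers. Vehicle replicate 1 was the highest vehicle array for 4 of 4 dopamine neuron markers and for 5 of the 9 thalamic genes, beside 33.5% of all genes. By limma 0 of 5 choroid plexus markers and 0 of 5 cerebellar markers passed in any comparison. At an unadjusted p under 0.05 there were 1 and 0 of them for amylin against wild type, 1 and 2 for vehicle against wild type, and 0 and 0 for amylin against vehicle.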
